A study of Rattus norvegicus with 60 samples.

Results

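The genes described are 9 markers of the medium spiny neurons of the rat striatum, chosen by name: Ppp1r1b, Rgs9 and Pde10a, which both kinds of these neurons use, Drd1 and Tac1 of the direct pathway, and Drd2, Adora2a, Penk and Gpr6 of the indirect pathway. Every probe set that the array annotation gives to exactly 1 of these symbols was taken, which gave 13 probe sets of 31042, and 9 genes of 14217 with such a probe set. Rgs9, Pde10a, Drd1 and Adora2a have 2 probe sets each and the other genes 1.

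Medium spiny neurons are the GABAergic projection neurons that make up most of the striatum, and dopamine acts on them through receptors that raise or lower cAMP. Neurons of the direct pathway project to the substantia nigra, carry the dopamine receptor Drd1, which raises cAMP, and make substance P from the precursor Tac1. Neurons of the indirect pathway project to the pallidum, carry the dopamine receptor Drd2, which lowers cAMP, beside the adenosine receptor Adora2a, which raises it, and make enkephalin from the precursor Penk. Ppp1r1b, a phosphatase inhibitor switched on by cAMP-dependent kinase, Pde10a, a phosphodiesterase that breaks down cyclic nucleotides, and Rgs9, which speeds the shut-off of G proteins, act downstream of the receptors in both kinds.

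RNA was measured on 60 Affymetrix arrays, 1 per sample, in the striatum, cortex and hippocampus of SD rats after 21 days of treatment. The 4 treatments were lithium chloride (LiCl), a mood stabilizer mixed at 0.2% into the chow, vehicle chow, lamotrigine, an anticonvulsant given by daily subcutaneous injection at 30 mg/kg, and vehicle injections. Each of the 12 groups held 5 arrays, and by their animal numbers many of the 24 rats gave more than 1 region. Age and sex are not stated in the labels, and the samples are whole dissected regions, not sorted neurons. All values are log2 intensities. Because probes differ in brightness, levels of different probe sets were not ranked against each other. Differences are on the log2 scale with the SE of the fit, adjusted p-values come from limma with Benjamini-Hochberg adjustment over all 31042 probe sets, and a probe set is called at an adjusted p under 0.05.

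Some striatum arrays stood apart. Genes of cortical principal neurons, a list of 6, were highest in lamotrigine replicate 2 (1.39 above the striatum mean, with 0 of 6 genes below it) and injection vehicle replicate 4 (0.88 above, also 0 of 6 below). The cortical glutamate transporter Slc17a7 stood at 9.67 and 8.80 in these arrays, at 8.98 in injection vehicle replicate 1, at 8.14 in lamotrigine replicate 1 and at 4.87 to 7.84 in the others. LiCl replicate 3 was instead high in genes of astrocytes (0.39), oligodendrocytes (0.38), microglia (0.35) and endothelial cells (0.56), with at most 1 gene of each list below the striatum mean. These 3 arrays were also the lowest of the 20 over the 9 genes. Choroid plexus genes were 1.48 to 1.69 above the mean in 5 further arrays (LiCl replicates 1 and 2, injection vehicle replicate 2, lamotrigine replicates 3 and 5). Results are therefore also given without the 3 arrays, and were run without the 5, both settings chosen after the data were seen.

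The stretches before the start of 2 of the genes are shown because Tac1 and Gpr6 followed each other closely from array to array although they mark different pathways. RefSeq promoters (assembly GRCr8, 250 bases before to 50 after each gene start) were given for 6 of the 9 genes, with 7 entries, and not for Ppp1r1b, Adora2a and Penk. The letters searched were those of the cAMP response element, TGACGTCA, and of its core, TGACG, on both strands. The full element, which also holds the core on each strand, was in the promoter of Gpr6, with its first base 93 bases before the start, and in 1.83% of all 33469 promoters. The core was in the promoters of Gpr6, Tac1 (206 bases before the start, on the opposite strand) and Pde10a (179 and 104 bases before), and in 21.2% of all promoters. The entries for Rgs9, Drd1 and Drd2 held neither in this window. The pair shown was picked from the correlations of these data, and any link between these letters and the levels was not tested. Capitals in the 250 bases before the start mark these matches, for Tac1 at chr4:36645333-36645582 on the plus strand and for Gpr6 at chr20:46075252-46075501 on the minus strand.
Tac1: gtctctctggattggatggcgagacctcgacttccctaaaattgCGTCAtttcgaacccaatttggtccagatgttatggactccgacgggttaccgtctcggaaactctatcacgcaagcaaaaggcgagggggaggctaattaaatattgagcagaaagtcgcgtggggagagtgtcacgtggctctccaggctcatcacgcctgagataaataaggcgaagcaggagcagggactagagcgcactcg
Gpr6: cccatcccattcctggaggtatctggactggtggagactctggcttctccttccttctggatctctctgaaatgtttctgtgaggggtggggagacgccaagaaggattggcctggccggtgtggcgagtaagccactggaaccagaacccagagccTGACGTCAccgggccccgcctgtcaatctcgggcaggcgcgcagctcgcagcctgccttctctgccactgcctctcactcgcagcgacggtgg

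The 9 genes were far higher in the striatum than in either other region. Adora2a (1368300_at) lay between 11.28 and 11.84 in the 20 striatum arrays, between 5.01 and 5.93 in the cortex and between 4.85 and 5.61 in the hippocampus. Drd2, its partner on indirect pathway neurons, ran from 10.72 to 11.49 in the striatum, from 5.08 to 6.29 in the cortex and from 5.10 to 6.08 in the hippocampus. All 13 probe sets were higher in every striatum array than in any of the 40 other arrays, as were 1.98% of all probe sets. In whole tissue, fewer cells of a type and less RNA per cell cannot be told apart, here and in each comparison that follows. The gap between the lowest striatum array and the highest other array was 5.35 for Adora2a (1368300_at), 4.43 for Drd2 and 3.86 for Drd1 (1368478_at), and it was smallest for Tac1 (1.92) and the second Rgs9 probe set (1382090_at, 0.87).

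Against the cortex, Adora2a was 6.11 ± 0.05 higher (69.1-fold), Drd2 5.58 ± 0.07 (47.8-fold) and Gpr6, a receptor with high basal activity that raises cAMP, 4.27 ± 0.06 (19.3-fold). Penk, the enkephalin precursor, differed by 3.74 ± 0.06 (13.4-fold). The direct pathway genes Drd1 and Tac1 were 5.13 ± 0.09 (34.9-fold) and 4.09 ± 0.09 (17-fold) higher. Ppp1r1b differed by 4.01 ± 0.04, Rgs9 by 4.19 ± 0.03 and Pde10a, at 3.16 ± 0.05 (8.97-fold), by the least among the brighter probe sets. Each of the 13 was called higher than in the cortex (31.6% of all probe sets were) and than in the hippocampus (35% of all), with adjusted p of at most 4.1e-30. These are ratios of intensities, and the cortex means of Adora2a (5.49) and Drd2 (5.72) were dim, under log2 6, so that the folds of these genes are not exact. Against the hippocampus the differences ran from 2.59 (Rgs9, 1382090_at) to 6.33 (Adora2a).

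Outside the striatum the genes were not at one level. The peptide precursors were higher in the cortex than in the hippocampus by their means, Penk with 9.74 against 8.74 and Tac1 with 8.11 against 7.39. For Penk the regions did not overlap, with 9.27 to 10.11 in the cortex and 8.27 to 9.13 in the hippocampus. The other 12 probe sets had overlapping cortex and hippocampus arrays, and for Gpr6 (6.07 and 6.05) and Drd1 (1368479_at, 5.60 and 5.55) the means were close.

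**Figure D1:**
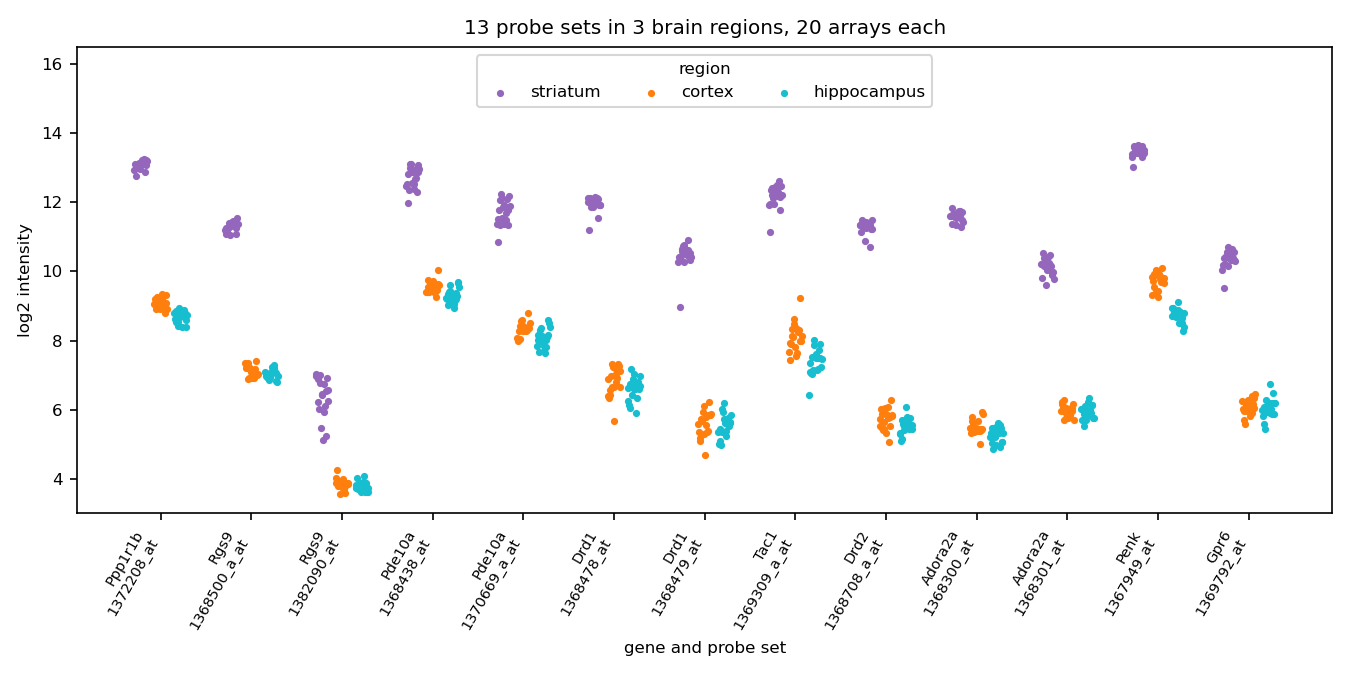
Log2 intensity (vertical axis) of the 13 probe sets of the 9 genes (horizontal axis) in striatum, cortex and hippocampus, each point 1 array, 20 per region, in all treatment groups. Every striatum point lies above all cortex and hippocampus points of its probe set, with the narrowest gap at the second Rgs9 probe set (0.87).

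Other genes of these neurons were read from lists. Of 24 genes of striatal projection neuron identity all were called higher in the striatum than in both other regions, with median differences of 2.43 and 2.83, and 21 did not overlap with either region. Syndig1l, a synaptic membrane protein, differed from the cortex by 4.14 and the retinoic acid receptor Rarb by 4.01, while the calcium release channel Itpr1 (0.53), the cannabinoid receptor Cnr1 (0.62) and the calcium sensor Hpca (1.40) overlapped with a region. Among other direct pathway genes 5 of 6 lay above both regions, led by Slc35d3 (4.88), and Sfxn1 lay below the cortex mean (-0.28). Among other indirect pathway genes 3 of 4 did, and Grik3 did not, with a mean of 4.79 in the striatum and 4.75 in the cortex.

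The genes that work with the 9 were measured too. Of 20 partners of Ppp1r1b and Rgs9 (kinase, phosphatase and G protein subunits) 5 lay above both regions, and the list medians were 0.19 and 0.11. Of 11 other cyclic nucleotide phosphodiesterases 3 did, Pde1b (3.03 above the cortex), Pde2a and Pde4b. Of 9 other dopamine, adenosine, opioid and tachykinin receptors only the kappa opioid receptor Oprk1 did (2.79). Drd3, Drd4 and Drd5, the further dopamine receptors, had striatum means of 3.62, 4.98 and 4.22, within 0.14 of each other region's mean. All 3 were dim, under log2 6, in every region, so little can be read from these small differences.

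In the striatum LiCl was compared with vehicle chow. By limma 0 of the 13 probe sets were called, as were 0% of all probe sets, and 6 of 13 had an unadjusted p under 0.05 against 12.3% of all. Values were lower with LiCl for 12 of the 13, where 55.4% of all probe sets were lower, with a median of -0.19 against -0.02. Groups did not overlap for 2 of 13, against 2.96% of all probe sets.

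Among the genes of both pathways, Ppp1r1b stood in the LiCl arrays at 12.94, 13.11, 12.78, 13.07 and 12.99 and in the vehicle chow arrays at 13.10, 13.15, 13.22, 13.17 and 13.26. The vehicle values were the higher ones except that LiCl replicate 2 passed vehicle replicate 1, and replicate 3 was the lowest. The difference was -0.20 ± 0.06 (unadjusted p = 0.00415, adjusted p = 0.243), and -0.15 (adjusted p = 0.176) without the 3 arrays. The brighter Rgs9 probe set (1368500_a_at) stood at 11.20, 11.25, 11.07, 11.21 and 11.27 with LiCl and at 11.43, 11.34, 11.47, 11.39 and 11.34 with vehicle chow. Every LiCl array was below every vehicle array, and the difference was -0.19 ± 0.07 (adjusted p = 0.317).

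The second Rgs9 probe set (1382090_at) went the other way and was the 1 of 13 with a higher mean. Its LiCl arrays stood at 6.98, 7.03, 7.01, 6.89 and 6.21 and its vehicle arrays at 6.42, 5.11, 5.92, 6.73 and 6.11. The groups overlapped through LiCl replicate 5, and the difference was 0.77 ± 0.32 (adjusted p = 0.352). The probe sets of Rgs9 did not follow each other over the 20 striatum arrays (Pearson r = 0.12, permutation p = 0.616, Spearman rho = -0.09, permutation p = 0.705), so the direction of Rgs9 depends on which is read. Pde10a (1368438_at) stood at 12.47, 12.52, 11.99, 12.83 and 12.37 with LiCl and at 12.88, 12.40, 12.53, 12.68 and 12.70 with vehicle chow. The groups overlapped, with a difference of -0.20 ± 0.15 (adjusted p = 0.579), and its other probe set gave -0.22 ± 0.17.

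For the direct pathway, the brighter Drd1 probe set (1368478_at) stood at 12.02, 12.13, 11.19, 12.12 and 11.998 with LiCl and at 11.94, 12.15, 12.02, 12.02 and 12.14 with vehicle chow. Only replicate 3 of LiCl lay below the vehicle range, and the difference was -0.16 ± 0.13 (adjusted p = 0.622). The dimmer probe set (1368479_at) had 10.28, 10.41, 8.97, 10.34 and 10.43 against 10.65, 10.58, 10.55, 10.47 and 10.61. Here the groups did not overlap, with replicate 3 again far below the others. The difference was -0.49 ± 0.20 (unadjusted p = 0.0225, adjusted p = 0.343) and -0.21 (adjusted p = 0.311) without the 3 arrays.

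Tac1 stood at 11.91, 11.96, 11.15, 12.35 and 12.42 with LiCl and at 12.35, 12.41, 12.51, 12.19 and 12.31 with vehicle chow. LiCl replicates 1 to 3 lay below the vehicle range and replicates 4 and 5 within it. The difference was -0.40 ± 0.18 (unadjusted p = 0.0405, adjusted p = 0.384) and -0.19 (adjusted p = 0.546) without the 3 arrays.

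For the indirect pathway, Drd2 stood at 11.36, 11.35, 11.14, 11.49 and 11.36 with LiCl and at 11.44, 11.42, 11.41, 11.38 and 11.28 with vehicle chow. The groups overlapped, and the difference was -0.04 ± 0.11 (95% interval -0.28 to 0.19, adjusted p = 0.897). Adora2a differed by -0.06 ± 0.09 (95% interval -0.24 to 0.12) and Penk by -0.14 ± 0.08 (-0.32 to 0.03). Gpr6 stood at 10.04, 10.17, 9.53, 10.39 and 10.23 against 10.40, 10.51, 10.39, 10.34 and 10.32. Replicate 4 was the LiCl array within the vehicle range, and the difference was -0.32 ± 0.12 (unadjusted p = 0.0152, adjusted p = 0.314). It was -0.19 (adjusted p = 0.338) without the 3 arrays.

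**Figure D2:**
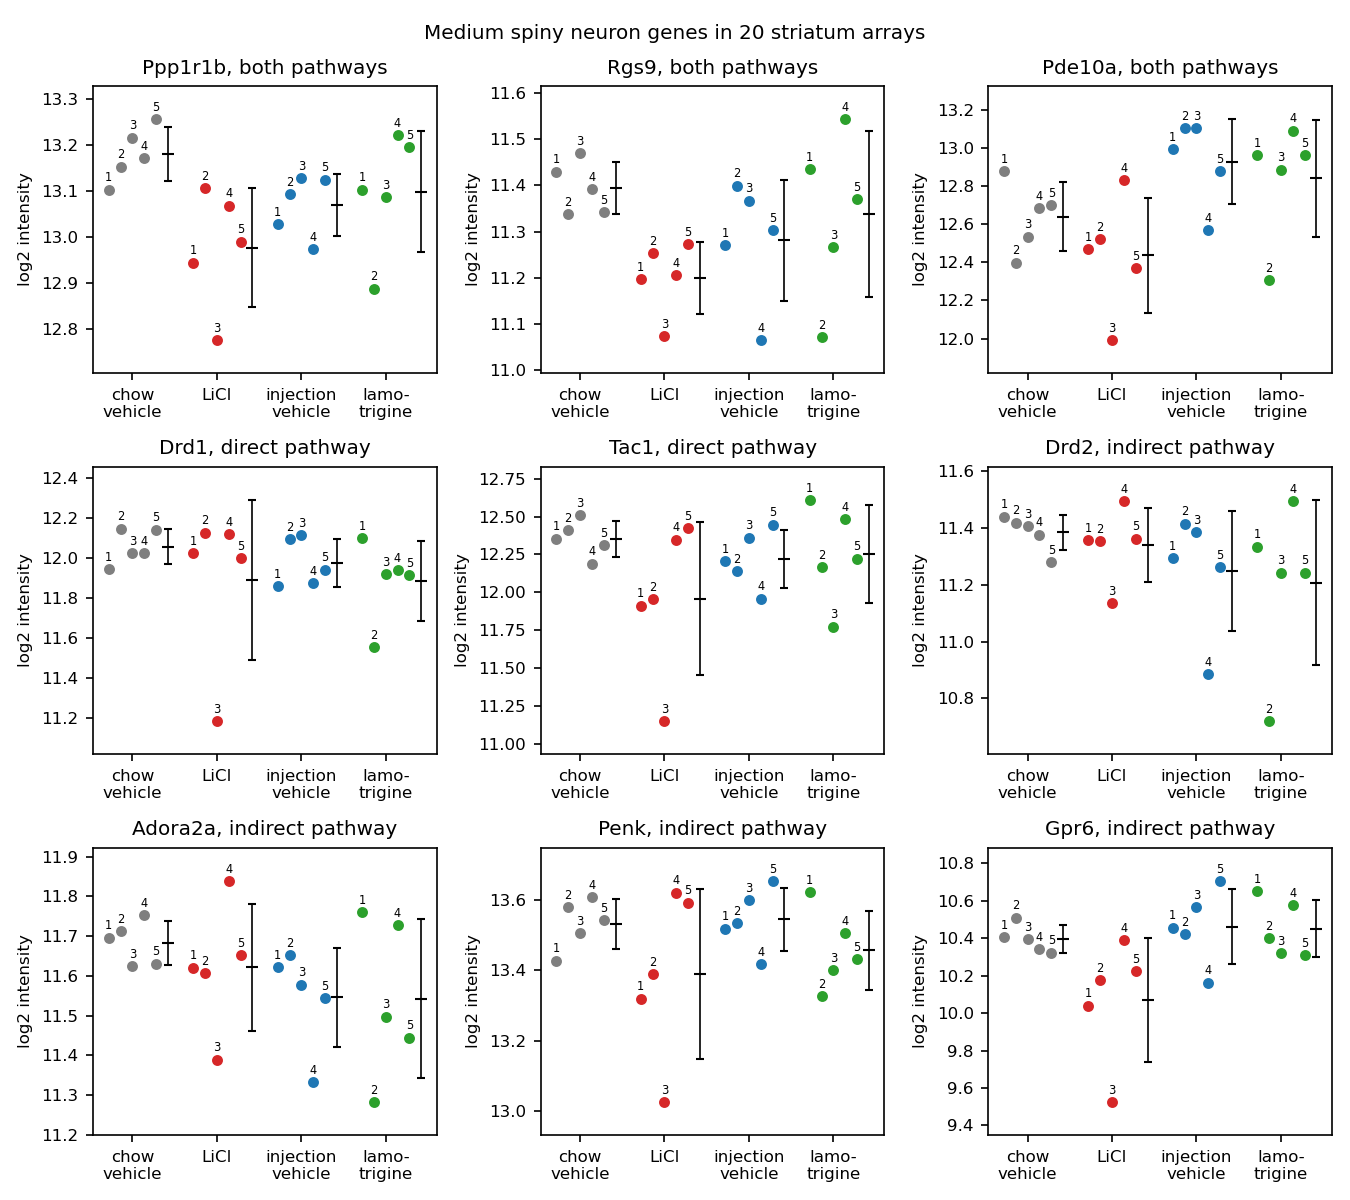
Log2 intensity (vertical axes, each with its own range) of the brightest probe set of each of the 9 genes in the 20 striatum arrays. Points are single arrays with their replicate number, and bars give the mean and SD of each group of 5. LiCl replicate 3 is the lowest point for Ppp1r1b, Pde10a, Drd1, Tac1, Penk and Gpr6, and lamotrigine replicate 2 for Drd2 and Adora2a.

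The other lists showed no call with LiCl in the striatum. Of 24 identity genes 20 had lower values (median -0.11, all genes -0.01), among them the calcium sensor Hpca (-0.25 ± 0.06, adjusted p = 0.148), the olfactory-type G protein Gnal (-0.28 ± 0.11) and the retinoid receptor Rxrg (-0.26 ± 0.11). Of 6 other direct pathway genes 5 had lower values (median -0.10), with the muscarinic receptor Chrm4 at -0.27 ± 0.12. Of 4 other indirect pathway genes 3 did (median -0.13), with Grik3 at -0.16 ± 0.09. The partners of Ppp1r1b and Rgs9 had a median of -0.06, with 16 of 20 lower. Oprm1, the mu opioid receptor, dim in the striatum with a mean of 5.45, differed by -0.25 ± 0.08 (adjusted p = 0.258).

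Markers of other cells did not all go one way in this comparison. The mean of 6 astrocyte genes was 10.62 to 11.02 in the LiCl and 10.46 to 10.70 in the vehicle chow arrays, that of 6 microglial genes 7.89 to 8.32 and 7.73 to 8.06, and that of 5 endothelial genes 8.14 to 8.63 and 8.14 to 8.32. Choroid plexus genes, a list of 6, were at 6.10 to 8.20 and 5.51 to 6.30. By gene, 5 of 6, 5 of 6, 4 of 5 and 5 of 6 had higher values with LiCl, and none of them was called. The median changes were 0.15, 0.14, 0.10 and 0.92, and meningeal genes (0.17, 5 of 6 higher) and cholinergic neuron genes (0.16, 3 of 3 higher) went with them. Values were lower for most genes of cortical principal neurons (2 of 6 higher, median -0.20), hippocampal neurons (1 of 4, -0.16), midbrain dopamine neurons (0 of 3, -0.18), the thalamus and hypothalamus (2 of 8, -0.05) and the pallidum and septum (0 of 2, -0.07). Oligodendrocyte (2 of 5, -0.03) and GABA interneuron genes (2 of 5, -0.01) had medians near that of all genes. With the 5 choroid-rich arrays left out, again 0 of the 13 were called, with Ppp1r1b at -0.24, Gpr6 at -0.35, Tac1 at -0.38 and Drd1 (1368479_at) at -0.66. The part of the other cell types was not tested.

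To set the pathways side by side, each array's deviation from the striatum mean was averaged over Drd1 and Tac1 and over Drd2, Adora2a, Penk and Gpr6, on the brightest probe set of each gene. The direct minus the indirect value was -0.08 ± 0.24 (SD, n = 5) with LiCl, 0.06 ± 0.08 with vehicle chow, 0.01 ± 0.11 with lamotrigine and 0.00 ± 0.07 with vehicle injections. All groups overlapped. LiCl replicate 3 was at -0.49, with direct genes at -0.90 and indirect genes at -0.41, and the other LiCl arrays lay between -0.01 and 0.11. No p is given for these averages. The LiCl minus vehicle chow value was -0.14, and with Tac1 left out it was -0.02, while Drd1 left out gave -0.25.

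**Figure D3:**
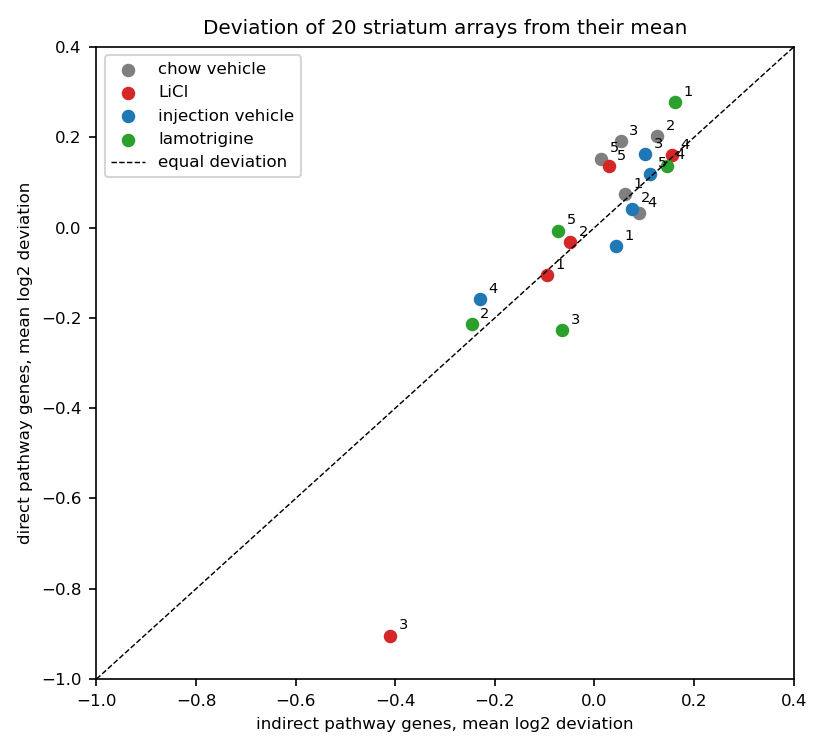
Mean log2 deviation of the direct pathway genes (Drd1 and Tac1, vertical axis) against that of the indirect pathway genes (Drd2, Adora2a, Penk and Gpr6, horizontal axis) in each of the 20 striatum arrays, measured from the mean over all 20. Colours give the group, numbers the replicate, and the dashed line equal deviation. Points stay near the line except LiCl replicate 3, at -0.90 for the direct and -0.41 for the indirect genes.

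Over all 9 genes the array means showed the vehicle chow group as the tightest, at 0.07 ± 0.01 (SD, n = 5) above the striatum mean, against -0.12 ± 0.24 with LiCl, 0.03 ± 0.13 with vehicle injections and 0.01 ± 0.18 with lamotrigine. LiCl replicate 3 was at -0.52, lamotrigine replicate 2 at -0.25 and injection vehicle replicate 4 at -0.19, with 9, 8 and 9 of the 9 genes below their striatum mean. Identity genes moved with them, at -0.25, -0.40 and -0.31, with 20, 24 and 24 of 24 below the mean. The LiCl array also had the highest 3' over 5' signal of Gapdh among the striatum arrays (0.28 on the log2 scale). For beta-actin it was at 1.34, below lamotrigine replicates 3 (1.39), 4 (1.39) and 5 (1.35). The part of other cell types, of the dissection and of RNA quality in these low values was not tested.

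Lamotrigine was compared with vehicle injections. In the striatum 0 of the 13 probe sets were called by limma (0% of all), and 0 had an unadjusted p under 0.05, against 3.84% of all. Groups overlapped for each of the 13, and did not in 0.557% of all. Differences ran from -0.12 (Adora2a, 1368301_at) to 0.06 (Rgs9, 1368500_a_at). Ppp1r1b, the most precise, differed by 0.03 ± 0.06 (95% interval -0.10 to 0.16), Drd2 by -0.04 ± 0.11 (-0.27 to 0.19), Drd1 (1368478_at) by -0.09 ± 0.13 (-0.37 to 0.19) and Tac1 by 0.03 ± 0.18 (-0.35 to 0.40). The Tac1 arrays stood at 12.61, 12.16, 11.77, 12.48 and 12.22 with lamotrigine and at 12.21, 12.14, 12.36, 11.96 and 12.45 with vehicle, so the drug group held both the highest and the lowest value.

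Whether the drugs differed was tested on the difference of their effects in the striatum. Of the 13 probe sets 0 were called (0% of all), and 2 had an unadjusted p under 0.05 against 8.01% of all, Rgs9 (1368500_a_at, -0.25 ± 0.10, adjusted p = 0.578) and Ppp1r1b (-0.23 ± 0.09, adjusted p = 0.572). For Drd2 the 95% interval of the difference was -0.33 to 0.33, and for Tac1, at -0.42 ± 0.26, it was -0.96 to 0.11.

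The vehicle groups were also set against each other in the striatum, since drug and route go together. Injected and chow vehicle rats differed at 6.83% of all probe sets and at 0 of the 13, with 1 of 13 at an unadjusted p under 0.05 (20.3% of all) and 0 of 13 without overlap (9.51% of all). Pde10a (1370669_a_at) stood at 12.08, 12.23, 12.13, 11.55 and 11.85 with injections and at 11.93, 11.37, 11.50, 11.50 and 11.69 with chow. Injection replicate 4 was the lowest of its group and chow replicate 1 the highest of the other, and through these the groups overlapped. The difference was 0.37 ± 0.17 (adjusted p = 0.211), and 0.29 ± 0.15 (adjusted p = 0.277) by the other probe set. Without the 3 low arrays both were called, with 0.48 (adjusted p = 0.0115) and 0.38 (adjusted p = 0.011). Calls over all probe sets also rose, from 2119 to 3175. The arrays left out are the lowest over the genes described, Pde10a among them. Leaving out injection replicate 4, the lowest of its group for 1370669_a_at, raises that difference by itself. No conclusion is therefore drawn from these calls. Adora2a had lower values with injections by both probe sets, -0.14 ± 0.09 (adjusted p = 0.406) and -0.23 ± 0.13 (adjusted p = 0.308).

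Of the identity list 23 of 24 genes had lower values with injections (median -0.16, all genes -0.04, with 54.2% of all probe sets lower), and 3 fell: the guanine nucleotide exchange factor Rasgrp2 (-0.64 ± 0.16, adjusted p = 0.016), the G protein subunit Gng7 (-0.57 ± 0.15, adjusted p = 0.0258) and Syndig1l (-0.56 ± 0.14, adjusted p = 0.0166). The Rgs9 partners went apart: Gnb5 fell (-0.33 ± 0.07, adjusted p = 0.00634) and the membrane anchor Rgs7bp rose (0.85 ± 0.12, adjusted p = 0.000136). Cortical principal neuron genes had a mean of 6.25 ± 0.61 in the injected and 5.78 ± 0.24 in the chow vehicle arrays, and endothelial genes 7.95 ± 0.33 and 8.20 ± 0.07, of which Pecam1 fell (-0.39, adjusted p = 0.029). Their part in these differences was not tested, and route and any other difference between the arms cannot be told apart.

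In the cortex the genes are lower than in the striatum. With LiCl 2 of the 13 probe sets were called there, a share near the 13.4% of all (5.22% higher and 8.2% lower). Rgs9 (1368500_a_at) stood at 7.36, 7.22, 7.32, 7.21 and 7.34 with LiCl and at 6.91, 7.02, 7.03, 6.91 and 6.97 with vehicle chow. Every LiCl array was above every vehicle array, as at 1 of 13 probe sets and in 11.8% of all for either direction. It rose by 0.32 ± 0.08 (1.25-fold, adjusted p = 0.0161), and its other probe set, at a level of 3.85 over the cortex arrays, differed by 0.20 ± 0.09 (adjusted p = 0.116).

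Pde10a (1370669_a_at) stood at 8.06, 7.98, 8.04, 8.27 and 8.04 with LiCl and at 8.39, 8.33, 8.34, 8.26 and 8.30 with vehicle chow. LiCl replicate 4 reached the lowest vehicle array and the other LiCl arrays lay below. It fell by 0.24 ± 0.08 (adjusted p = 0.0466), while its brighter probe set, which follows it closely in the striatum (Pearson r = 0.979, permutation p = 1e-05, the smallest these permutations can give), differed by 0.05 ± 0.10 (adjusted p = 0.781). The fall was no longer called without any 1 of LiCl replicates 1, 2, 3 and 5, any 1 vehicle chow replicate, injection vehicle replicate 1, 2 or 4 or lamotrigine replicate 5 (adjusted p from 0.0502 to 0.0958), or with no intensity trend in the fit (adjusted p = 0.0537). Adora2a (1368301_at) differed by 0.26 ± 0.09 (adjusted p = 0.0654) and was called without lamotrigine replicate 5 (adjusted p = 0.0462) and with no intensity trend (adjusted p = 0.0488). Drd1 (1368478_at) differed by -0.21 ± 0.21, and by -0.48 (adjusted p = 0.0456) without vehicle chow replicate 1, at 5.68 the lowest array of its group. The other Drd1 probe set (1368479_at) was not lower, with means of 5.39 with LiCl and 5.36 with vehicle chow.

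The distribution of values was narrower in the LiCl cortex arrays, where the interquartile range over all probe sets was 3.29 to 3.44 against 3.56 to 3.61 in the vehicle arrays. With that spread as a covariate neither change was called, Rgs9 with 0.38 (adjusted p = 0.388) and Pde10a with -0.07 (adjusted p = 0.897). With quantile normalization, which gives all arrays 1 distribution, Rgs9 was called and Pde10a (-0.15, adjusted p = 0.255) was not. The spreads of the LiCl and vehicle arrays did not overlap, so the covariate cannot separate drug from spread. No conclusion is drawn from the calls lost with it. The part of the spread in these changes was not tested.

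Of the other lists, 18 of 20 partners of Ppp1r1b and Rgs9 had lower values in the LiCl cortex (median -0.09, all genes -0.03, with 50.2% of all probe sets lower and 8.2% called lower) and 6 fell: the Rgs9 partner Gnb5 (-0.21 ± 0.06), the kinase subunits Prkacb (-0.16 ± 0.05) and Prkar2a (-0.18 ± 0.05), the phosphatase subunits Ppp3ca (-0.17 ± 0.05) and Ppp2r5d (-0.17 ± 0.05), and Cdk5 (-0.18 ± 0.06), a kinase of Ppp1r1b. Chrm4 (-0.45 ± 0.09) and, of 24 identity genes, Actn2 (-0.43 ± 0.14), Dclk3 (-0.42 ± 0.09), Hpca (-0.28 ± 0.05) and Rap1gap (-0.14 ± 0.05) fell, as did Pde1b (-0.22 ± 0.07). Oprm1, dim in the cortex with a mean of 5.31, rose (0.40 ± 0.10). Adjusted p lay between 0.0033 and 0.0481. The 2453 probe sets brightest in the cortex had a median of -0.07, near that of the partners. Whether the partners moved beyond bright probe sets as a class was not tested. With the array spread as a covariate 0 probe sets were called in this comparison, so that none of these list genes kept its call, and Pde1b turned to 0.0117. As spread and drug go together here, no conclusion is drawn from these lost calls.

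Lamotrigine left 0 of the 13 called in the cortex (0% of all, with 5.8% at an unadjusted p under 0.05 and 0 of the 13). All 13 had higher values, from 0.00 to 0.20, where 47.1% of all probe sets were lower, and the lowest adjusted p was 0.887. Groups were apart for 0 of the 13 and in 0.763% of all. The cortex array of lamotrigine replicate 2 held the highest Tac1 value of the region, 9.23.

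In the hippocampus LiCl gave 0 calls among the 13 (0.235% of all), with 6 of 13 at an unadjusted p under 0.05 against 15.5% of all. Drd2 stood at 5.30, 5.31, 5.10, 5.70 and 5.16 with LiCl and at 6.08, 5.78, 5.52, 5.61 and 5.45 with vehicle chow. LiCl replicate 4 lay within the vehicle range and the others below it, with a difference of -0.38 ± 0.12 (adjusted p = 0.136). Rgs9 (1368500_a_at) stood at 7.08, 7.07, 6.99, 6.95 and 6.91 against 7.11, 7.23, 7.24, 7.30 and 7.20. These groups did not overlap, as at 1 of 13 probe sets and in 3.87% of all, and the difference was -0.22 ± 0.07 (adjusted p = 0.139).

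Tac1 (-0.39 ± 0.17), Gpr6 (-0.36 ± 0.15), Drd1 (1368479_at, -0.34 ± 0.13) and Adora2a (-0.30 ± 0.12) were the others under an unadjusted p of 0.05, with adjusted p from 0.228 to 0.266. Of the partners of Ppp1r1b, the casein kinase Csnk1e fell (-0.26, adjusted p = 0.0379), the 1 of 20 called, with 11 of 20 lower, a median of -0.01 (all genes 0.01) and 0.0999% of all probe sets called lower. With the spread as a covariate it was at -0.25 (adjusted p = 0.577). The hippocampus levels of Tac1, Gpr6, Drd1 (1368479_at) and Adora2a, 5.27 to 7.39 by region mean, lie below every striatum value of these probe sets. With lamotrigine 0 of the 13 were called (0.00322% of all) and 1 had an unadjusted p under 0.05, against 9.87% of all, and groups were apart for 0 of the 13 and in 2.14% of all. The 1 with the low p was Penk, at 8.51, 8.67, 8.27, 8.39 and 8.80 with the drug and 8.81, 8.69, 8.79, 8.85 and 8.88 with vehicle. Replicate 5 of lamotrigine lay within the vehicle range and the rest below it, with a difference of -0.27 ± 0.10 (adjusted p = 0.382).

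**Figure D4:**
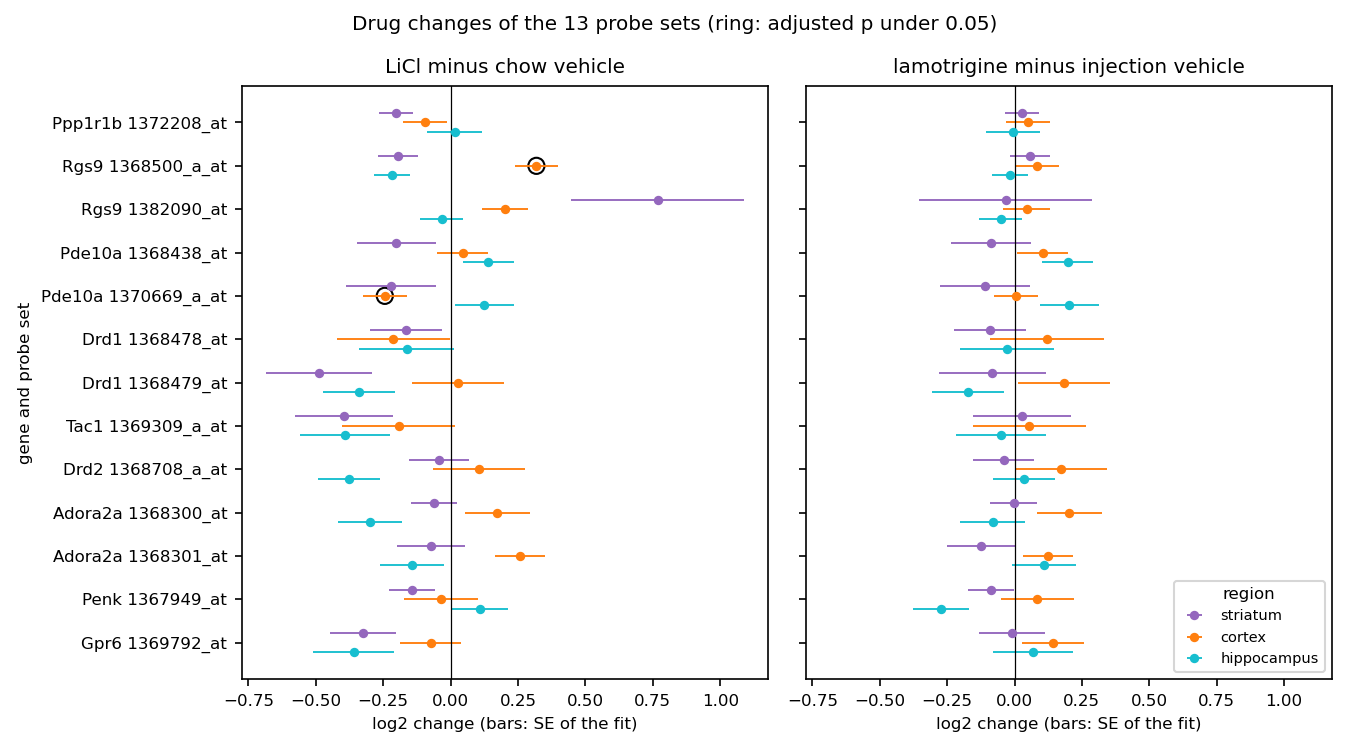
Log2 change of each of the 13 probe sets (vertical axis) with LiCl against vehicle chow (left) and with lamotrigine against vehicle injections (right), on 1 shared horizontal scale. Points are fitted differences in striatum, cortex and hippocampus, bars their SE, and rings mark an adjusted p under 0.05. The rings are at Rgs9 (0.32) and Pde10a (-0.24) in the cortex with LiCl.

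An F test over all 60 arrays asked if LiCl acted unequally in the 3 regions. Of the 13 probe sets 1 was called, against 17.2% of all: Rgs9 (1368500_a_at, adjusted p = 9.47e-05), with -0.19 in the striatum, 0.32 in the cortex and -0.22 in the hippocampus. It was called in each of the 9 alternatives run (adjusted p up to 0.00397). The array spread as a covariate was not run for the F test. With it the cortex call of Rgs9 was lost, but it cannot separate drug from spread there. Adora2a (1368300_at) was next (adjusted p = 0.0551). The lamotrigine effect gave 0 of 13 (0% of all, 5.52% at an unadjusted p under 0.05).

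How the 9 genes varied together was read over the 20 striatum arrays, all groups pooled, in 36 pairs, with permutation p adjusted over the 36. Pearson r ran from 0.28 (Drd2 and Gpr6) to 0.88 (Drd2 and Adora2a) with a median of 0.62. By permutation 30 pairs passed for Pearson r, 16 for Spearman rho and 34 for deviations from the group means. The share among pairs of other genes was not computed, so these counts are not read as a trait of the 9 genes. Without the 3 low arrays the median r was 0.25, with a range from -0.30 (Pde10a and Drd1) to 0.76 (Drd2 and Adora2a). These arrays are the lowest over the same 9 genes. Leaving them out narrows the range and tends to lower r by itself, so no conclusion is drawn from the drop.

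Drd2 and Adora2a, receptors of the same neurons, had r = 0.884 and rho = 0.803 (permutation p = 1e-05 and adjusted p = 0.00018 for r), and r = 0.833 without the 2 arrays farthest from the Drd2 median. Tac1 and Gpr6, of different pathways, had r = 0.872 and rho = 0.707 (permutation p = 4e-05, adjusted p = 0.00048), and 0.767 without the 2 farthest arrays. Tac1 and Penk, the peptide precursors of the pathways, had r = 0.86 and rho = 0.695 (permutation p = 7e-05, adjusted p = 0.00063), and 0.703 without the 3 low arrays. Ppp1r1b and Rgs9 had r = 0.826 and rho = 0.755 (permutation p = 1e-05, adjusted p = 0.00018), and 0.674 without the 3 arrays.

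Pairs within a pathway were not the closest throughout. Drd1 and Tac1, both of the direct pathway, had r = 0.684 but rho = 0.338, and r = 0.135 without the 3 arrays. On deviations from the group means they had r = 0.693 (permutation p within groups = 0.0433, adjusted p = 0.0458). Drd2 and Gpr6, both of the indirect pathway, had r = 0.279 with all groups pooled (permutation p = 0.204). On deviations from the group means they had r = 0.569 (permutation p within groups = 0.00955, adjusted p = 0.0143), so this pair did pass there. The Drd1 probe sets had r = 0.785, rho = 0.388 and r = 0.26 without the 2 farthest arrays, and those of Adora2a r = 0.826, then 0.778. Leaving out the farthest arrays tends to lower r by itself, so no conclusion is drawn from these drops.

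**Figure D5:**
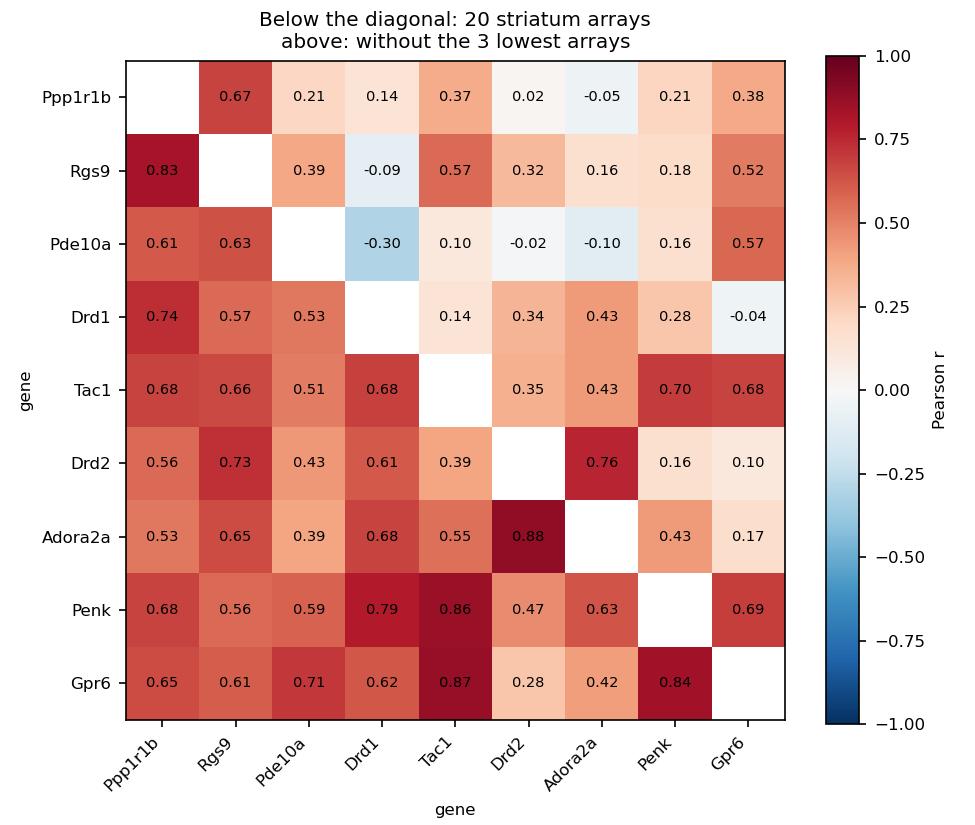
Pearson r between the 9 genes over striatum arrays, with genes on both axes and colour and number giving r. Below the diagonal all 20 arrays are used, above it the 3 lowest arrays are left out, which takes the median from 0.62 to 0.25 while Drd2 with Adora2a stays at 0.76.

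The genes most like each member were found by a fixed rule, as a description. Over the 12 group means, whose differences are mainly those between regions, Pde1b was closest to Ppp1r1b (r = 0.999), Gnal to Pde10a (0.996) and Gpr6 (0.998), Rarb to Drd1 (0.999), Nexn to Drd2 (0.999), Isl1 to Rgs9 and Adora2a (0.999 each), Scn4b to Penk (0.998) and Ankrd37 to Tac1 (0.996). Over the deviations of the 20 striatum arrays from their group means, Ngef was closest to Rgs9 (0.971), Cyld to Tac1 (0.968), Dgkb to Penk (0.957), Pdpk1 to Drd2 (0.956), Dach1 to Drd1 (0.941), Fbxo34 to Gpr6 (0.932), Dpy19l3 to Adora2a (0.925), Orai2 to Pde10a (0.91) and Ano3 to Ppp1r1b (0.908). Ppp2r2a was among the 3 closest genes of both Tac1 (0.95) and Gpr6 (0.931), and Pdpk1 of both Drd2 and Pde10a (0.903).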

How the data were processed

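RNA of 3 brain regions was hybridised to 60 Affymetrix rat arrays. The deposited values are linear intensities, 1 per probe set and array, which the authors made with RMA in R 2.7.2 according to the submitters' processing notes. RMA places all arrays on a common scale, and array medians lay between 93.53 and 101.1. A log2 scale had been planned for, so log2 of the intensities was taken, with no pseudocount and no filter on low values. After 57 control probe sets were left out, 31042 remained. The platform annotation gave 20826 of them 1 symbol, 436 several and 9780 none, and only the first were named. The array, organism and design labels give rat, and 1 tissue label reads mouse.

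Each region's 20 arrays were fitted in 1 linear model with limma 3.58.1 (R 4.3.3, with version 1.17.8 of data.table, empirical Bayes with an intensity trend), with Benjamini-Hochberg adjustment. Region contrasts and F tests used all 60 arrays, with animals as random effects (duplicateCorrelation, consensus 0.133). Other values were computed with Python 3.11.15, pandas 2.3.3, numpy 2.4.6 and scipy 1.17.1, and correlations with 100000 permutations, two-sided. Intervals are 95% intervals of the fit. The number of arrays limits precision. Samples are labelled by animal number but not otherwise described as independent, so that p-values measure the spread between these samples.

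The members and the gene lists were chosen with earlier results of these data known. The genes named are all 9 members and, from each other list and drug comparison, the called genes or at most the 3 farthest from no change. List genes named for the regions, Grik3 for LiCl and the choice of probe sets shown array by array fall outside this rule and were picked after their values were seen. Gene-level values use the brightest probe set. The genes most like a member are the 3 with the highest Pearson r. Alternatives were quantile normalization, centring on array medians, leaving out dim probe sets (mean log2 under 6), no intensity trend, a replicate block, the array spread as a covariate, 1 fit of all arrays, and leaving out each array in turn. No intensity trend, the replicate block and the array spread were run only for the fits by region. Region contrasts and F tests were instead also run without a block and without each replicate number. The fits for LiCl in the striatum, striatum versus cortex and LiCl across regions were tested on simulated data with known changes.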

Additional observations from a re-analysis of the deposited data

Results flagged for a closer look

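Of 156 groups of 5 arrays tested, 9 held an array whose distance from the nearest other array exceeded Dixon's critical value of 0.71 of the group's range, where chance gives about 1 in 20, and 4 of the 9 were in the striatum. LiCl replicate 3 of the striatum was the lowest of its group for both Drd1 probe sets, at 11.19 (1368478_at, nearest array 11.998) and 8.97 (1368479_at, nearest 10.28). In the striatum, Rgs9 (1382090_at) was lowest in LiCl replicate 5, at 6.21 (nearest 6.89), and Pde10a (1368438_at) was lowest in lamotrigine replicate 2, at 12.31 (nearest 12.88). Lamotrigine replicate 2 of the cortex was the highest of its group for Tac1, at 9.23 (nearest 8.29), and for Drd1 (1368479_at), at 6.22 (nearest 5.87). In the cortex, Drd1 (1368478_at) was lowest in vehicle chow replicate 1, at 5.68 (nearest 6.80), Pde10a (1370669_a_at) was highest in LiCl replicate 4, at 8.27 (nearest 8.06), and Ppp1r1b was highest in injection vehicle replicate 4, at 9.12 (nearest 8.96).

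The LiCl effect on Rgs9 (1368500_a_at) differed between the regions by the F test of limma (adjusted p = 9.47e-05), with lower values in the striatum (-0.19) and hippocampus (-0.22) and higher ones in the cortex (0.32). The second Rgs9 probe set (1382090_at), with 0.77, 0.20 and -0.03, did not pass that test (adjusted p = 0.0984).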

How the results depend on the processing

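All 13 probe sets were called higher in the striatum under every alternative run, except that with dim probe sets left out Rgs9 (1382090_at) was not tested and the other 12 were called. The counts of 0 of 13 for both drugs in the striatum and hippocampus, for lamotrigine in the cortex and across regions, and for the difference between the drugs did not move under any of them. The vehicle groups differed at 2 of 13 in the striatum without the 3 low arrays, a setting chosen after the data were seen. Both are probe sets of Pde10a, and calls over all probe sets rose from 2119 to 3175 in that setting. The arrays left out are the lowest over the same genes, so no conclusion is drawn from this count. For LiCl in the cortex the count of 2 of 13 was 1 with quantile normalization, 0 with the array spread as a covariate, 1 in a single fit of all arrays with the animal as a random block, and 1 to 2 when single arrays were left out. With no intensity trend it stayed at 2, with Adora2a (1368301_at) called in place of Pde10a (1370669_a_at). Pde1b in that comparison turned from -0.22 to 0.0117 (adjusted p = 0.985) with the spread as a covariate. For LiCl across regions the count of 1 was 2 with arrays centred on their medians, where Adora2a passed (adjusted p = 0.0477), and 1 to 4 with single replicate numbers left out (2 without replicate 2 and 4 without replicate 4). In the cortex the spreads of LiCl and vehicle arrays do not overlap, so the spread covariate cannot separate drug from spread there. The causes of these changes were not tested.

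Over all probe sets, calls for LiCl in the striatum went from 0 to 3 with no trend, 2 with the spread as a covariate and 104 in the single fit of all arrays. In the cortex they went from 4164 to 1361 with quantile normalization and 0 with the spread as a covariate, and in the hippocampus from 73 to 26, 127 (no trend), 0 (spread) and 154 (single fit). Vehicle groups differed at 3466 in the single fit in place of 2119, LiCl across regions at 2099 (quantile) and 2756 (dim probe sets left out) in place of 5348, and the drug difference at 1 (spread) and 3 (single fit) in place of 0. With single arrays left out, calls ran from 0 to 8 for LiCl in the striatum, 2094 to 4576 in the cortex and 5 to 256 in the hippocampus, and from 0 to 3 for lamotrigine in the hippocampus. With single replicate numbers left out, LiCl across regions gave 2511 to 4175. The background shares beside the members' counts move with these.

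Samples that share a replicate number were not paired by the labels. Over 30 same-numbered pairs the correlation of deviations ran from -0.54 to 0.24, with 5 above 0.1, and 4 correlated best with their own number. With the replicate number as a block, 2 of 13 were called for LiCl in the cortex (Pde10a, adjusted p = 0.0471) and 0 of 13 in the other drug and vehicle comparisons, as without it. Over all probe sets the block took LiCl in the hippocampus from 73 to 28 and lamotrigine there from 1 to 0. Without any block in the fits of all 60 arrays, the counts of 13, 13, 1 and 0 were the same.

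Outside the striatum both Adora2a probe sets, Drd2, Drd1 (1368479_at) and Rgs9 (1382090_at) had region means under log2 6, the level below which a probe set was treated as dim.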
